A study of Mus musculus with 8 samples.

Results

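The arrays carried 11 probes for 9 genes of major histocompatibility complex (MHC) class I antigen presentation, among 39429 probes for 30175 gene names in all. The probes were taken by gene name, and the genes were B2m, H2-K1, H2-D1, H2-T23, Tap1, Tap2, Tapbp, Erap1 and Nlrc5. The group was chosen by B2m, picked for its higher signal under Hdac6 KD than under control KD, so that its values there are described without a test. Of the 9 genes, 7 had a probe bright enough to be tested, among 18116 genes tested, and Tap1 and Erap1 did not.

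All samples were mouse E14 embryonic stem cells (ESCs), grown without feeder cells on gelatin in medium with serum and LIF. The cells were infected with lentivirus carrying short hairpin RNAs, and RNA was taken 72 hours after infection. Replicates are lettered A and B, biological by the labels, with 2 in each of 4 groups: control KD (a hairpin against GFP), Tip60 KD, Hdac6 KD and double KD (both of these genes together). KD stands for knockdown. Kat5 encodes Tip60, an acetyltransferase, and Hdac6 encodes a deacetylase. The arrays addressed the question of whether the Tip60-p400 chromatin complex needs Hdac6 to regulate its target genes. A single hairpin served for each gene, selected for its effect among several, so that a change cannot be told apart from an effect of that hairpin on other transcripts. The groups hold bulk cells, in which fewer cells expressing a gene and less RNA per cell cannot be told apart.

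MHC class I molecules show peptides from inside the cell to T cells and natural killer cells. Each is a heavy chain bound to the invariant light chain beta-2 microglobulin (B2m) and a short peptide. The proteasome makes the peptides, the Tap1-Tap2 transporter carries them into the endoplasmic reticulum, Erap1 trims them, and tapasin (Tapbp) helps to load them. Nlrc5 is a transactivator of these genes, and interferons raise many of them. ESCs are known for low levels of class I molecules at the cell surface.

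Each value below is the log2 of an array's background-subtracted signal divided by that array's 75th percentile, with the lowest values raised to a common floor at -2.71. Values of different probes are not set against each other, since probes differ in binding. A difference was called at a Benjamini-Hochberg adjusted p under 0.1 from limma, fitted over all genes and all 8 arrays. With 2 arrays per group the number of arrays limits the precision.

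The targeted genes were lowered where they should be. The Kat5 signal fell to 39.2% of control KD under Tip60 KD and to 40.4% under double KD, and the Hdac6 signal fell to 17.8% under Hdac6 KD and to 27.3% under double KD. The Hdac6 signal was also at 73.9% of control KD under Tip60 KD (limma adjusted p 0.00622). All A arrays shared a slide and all B arrays another, and each group held 1 slide position throughout, so that position and group cannot be told apart. The arrays differed in the background subtracted, with a median of 37.2 to 114.3 intensity units, highest on control KD array B. Of 43020 spots, 21896 to 40609 were well above background. ESC markers were bright on every array. The summed scaled signal of the 6 with a value on each lay between 300.8 and 301.5 times the 75th percentile under control KD. It lay between 314.9 and 317.2 under Tip60 KD, 288.7 and 289.5 under Hdac6 KD, and 305.4 and 319.3 under double KD. Of 8 ESC markers, all tested, 3 rose under Tip60 KD and 2 under Hdac6 KD. In double KD 3 rose and 1 fell. Of all genes tested, 39.7%, 28.9% and 32.8% were called under the Tip60, Hdac6 and double KD. With the replicate letter as a block 7 ESC markers were called under Tip60 KD and 4 under Hdac6 KD. That block raised the calls over all 18116 genes from 7201, 5240 and 5939 to 11028, 9594 and 10046 under the Tip60, Hdac6 and double KD. Counts and p-values with the block below stand beside these higher numbers.

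Among the ESC markers, Pou5f1 rose by 1.01, 0.47 and 0.63 under the Tip60, Hdac6 and double KD (limma adjusted p 0.00277, 0.0453 and 0.0171). Zfp42 rose by 0.45 under Tip60 KD and 0.37 under double KD. Tdgf1 rose by 0.59 under Hdac6 KD and 0.33 under double KD. Utf1 rose by 0.28 under Tip60 KD (adjusted p 0.0790), and Sox2 fell by 0.35 under double KD (adjusted p 0.0712). Markers of other cell types moved in part with the knockdowns. The summed signal of 4 fibroblast markers lay between 1.84 and 2.08 under control KD, 2.50 and 2.96 under Tip60 KD, 1.94 and 2.02 under Hdac6 KD, and 2.64 and 2.91 under double KD. Of 8 fibroblast markers 4 were tested and 2 of these, Col1a1 and Thy1, rose under Tip60 KD and under double KD. Col1a2, Postn, Dcn and Pdgfra were too dim. In Hdac6 KD none was called, and 1 was called with the replicate letter as a block. The count of 2 was 1 without control KD array B in both comparisons, without Tip60 KD array A under Tip60 KD and without double KD array A under double KD. Of 8 haematopoietic and antigen presenting cell markers 6 were tested, and their summed signal lay between 2.40 and 3.44 over all arrays. Of these 1 rose under Tip60 KD, 1 rose and 2 fell under Hdac6 KD, and 1 rose and 1 fell under double KD. The gene that rose was Cd74, the class II invariant chain, which read -2.57 and -2.70 under control KD and changed by 1.78, 1.30 and 1.52 under the Tip60, Hdac6 and double KD (limma adjusted p 0.00139, 0.00628 and 0.00352). The macrophage marker Cd68 fell by 0.47 under Hdac6 KD and 0.50 under double KD (adjusted p 0.0844 and 0.0645). The class II chain gene H2-Ab1 fell by 0.87 under Hdac6 KD (adjusted p 0.0905), with 1 Hdac6 KD array at the floor. With the block 3 of these markers were called under Tip60 KD. The count of 3 under Hdac6 KD was 1 without either control KD array, without Hdac6 KD array A or without either double KD array. That of 2 under double KD was 1 without either control KD array or without double KD array A, and that of 1 under Tip60 KD was 2 without either Tip60 KD array. Of 6 trophectoderm markers 3 were tested, and their summed signal lay between 2.22 and 2.29 under control KD, 2.75 and 3.06 under Tip60 KD, 2.18 and 2.43 under Hdac6 KD, and 2.60 and 2.77 under double KD. The keratin gene Krt8 rose by 1.28, 0.76 and 1.16 (adjusted p 0.00383, 0.0316 and 0.00779), its partner Krt18 fell by 0.24, 0.32 and 0.19 (adjusted p 0.0395, 0.0236 and 0.0937), and Eomes, a transcription factor, rose by 0.84 under Tip60 KD (adjusted p 0.00942). The 2 calls under Hdac6 KD were 0 without Hdac6 KD array A and 1 without its other array or either control KD array, and the 2 under double KD were 1 without any one of the 8 arrays. The defining factor genes Cdx2, Gata3 and Hand1 were too dim. Of 6 primitive endoderm markers 2 were tested and none was called. The part of these cell types in the results below was not tested.

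The promoters of B2m and of the 3 heavy chain genes are shown here, because B2m lay above control KD under Hdac6 KD where H2-K1 and H2-T23 lay below it, and class I genes are known for a shared promoter layout. Each is the 250 bases before the RefSeq transcription start, in lower case with motif matches in capitals.
B2m promoter, GRCm38.p6 chr2:122147437-122147686, plus strand: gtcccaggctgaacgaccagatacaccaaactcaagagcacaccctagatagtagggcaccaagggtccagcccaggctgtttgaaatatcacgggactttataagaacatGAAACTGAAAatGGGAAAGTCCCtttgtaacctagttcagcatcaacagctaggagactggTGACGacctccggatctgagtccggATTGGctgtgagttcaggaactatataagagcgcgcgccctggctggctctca
H2-K1 promoter, GRCm38.p6 chr17:34000348-34000597, minus strand: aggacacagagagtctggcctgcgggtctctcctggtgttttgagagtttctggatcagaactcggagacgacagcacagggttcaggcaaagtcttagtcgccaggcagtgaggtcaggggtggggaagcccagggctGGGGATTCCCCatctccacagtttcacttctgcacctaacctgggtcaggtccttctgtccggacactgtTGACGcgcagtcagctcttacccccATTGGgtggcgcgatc
H2-D1 promoter, GRCm38.p6 chr17:35262844-35263093, plus strand: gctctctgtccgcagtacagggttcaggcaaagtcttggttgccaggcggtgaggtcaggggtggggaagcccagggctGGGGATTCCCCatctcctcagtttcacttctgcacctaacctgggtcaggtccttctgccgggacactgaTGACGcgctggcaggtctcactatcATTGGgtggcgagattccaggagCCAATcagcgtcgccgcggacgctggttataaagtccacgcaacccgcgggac
H2-T23 promoter, GRCm38.p6 chr17:36032702-36032951, minus strand: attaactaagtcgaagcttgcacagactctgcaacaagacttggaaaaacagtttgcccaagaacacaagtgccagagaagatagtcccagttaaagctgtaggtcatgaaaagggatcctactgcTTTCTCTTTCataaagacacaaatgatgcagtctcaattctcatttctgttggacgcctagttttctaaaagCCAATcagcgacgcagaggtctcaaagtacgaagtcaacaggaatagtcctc
The motifs were searched on both strands in the promoters of the 7 genes that the sequence table held, which lacked Tap2 and Nlrc5. They were the CCAAT box (CCAAT), the cyclic AMP response element core (TGACG) and its full form (TGACGTCA), the interferon-stimulated response element core (GAAA, any 2 bases, GAAA), the NF-kB consensus (GGGA, any 4 bases, CC) and the E-box (CACGTG). Matches to different motifs may overlap, and the NF-kB letters matched on both strands at the same place in B2m, H2-K1 and H2-D1.

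The B2m promoter held the interferon element core 139 bases before the start, the NF-kB letters at 127, TGACG at 78 and the reverse of CCAAT at 53. H2-K1 and H2-D1 held the NF-kB letters, TGACG and the reverse of CCAAT in the same order. The NF-kB letters lay at 111 and 171 bases before their starts. H2-D1 also held CCAAT at 53. A second H2-K1 start, whose promoter is not shown, had the NF-kB letters at 125 and a further CCAAT at 6. Neither H2-K1 nor H2-D1 held the interferon element core in these exact letters. The search would miss a variant of that element, so its absence from these 2 promoters is not shown. H2-T23 held the interferon element core on the other strand, at 124 bases, and CCAAT at 52. The Tap1 promoter held CCAAT and TGACG, that of Tapbp held the reverse of CCAAT at 2 places, and that of Erap1 held an E-box only. Of 32851 promoters of the same length, 2.98% held the interferon element core, 17.6% the NF-kB letters, 17.8% TGACG, 33.8% CCAAT, 6.02% the E-box and 1.55% TGACGTCA, which none of the 7 held. A match is a description of the letters and does not show that a factor binds there.

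B2m, the light chain shared by all classical class I molecules, is covered by 1 probe (chromosome 2, 121978401 to 121978460 on mm9). It read 1.15 and 0.96 on the A and B arrays under control KD, 1.50 and 1.08 under Tip60 KD, 2.22 and 1.93 under Hdac6 KD, and 1.71 and 1.43 under double KD. Both Hdac6 KD arrays lay above the other 6, and both double KD arrays lay above both control KD arrays. The Tip60 KD arrays overlapped both control KD and double KD. The mean B2m signal was 2.02-fold that of control KD under Hdac6 KD, 1.43-fold under double KD and 1.18-fold under Tip60 KD. On the log2 scale the difference from control KD under Hdac6 KD was 1.07 on slide A and 0.97 on slide B. Double KD lay 0.50 below Hdac6 KD and Tip60 KD lay 0.78 below it. The log2 difference of double KD from Tip60 KD was 0.28 (SE 0.19, limma adjusted p 0.560). With the replicate letter as a block the adjusted p of that difference was 0.0505. The difference itself uses none of the arrays by which B2m was picked. Its SE and both p-values pool the spread within every group, so they draw on the control KD and Hdac6 KD arrays of that pick.

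**Figure D1:**
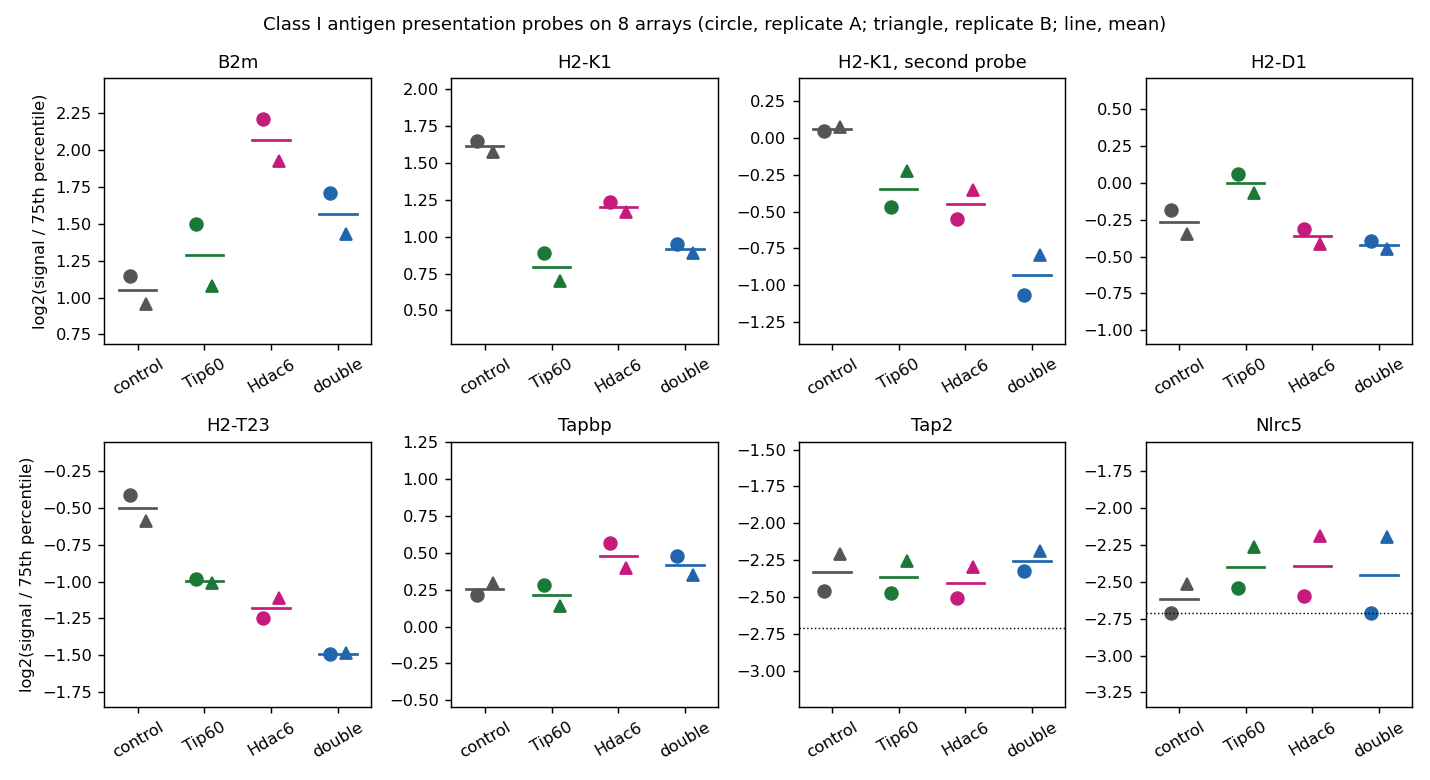
Log2 signal over the array's 75th percentile (y axis) for 8 probes of 7 genes in the 4 groups (x axis). Circles are replicate A, triangles replicate B and lines group means, and the dotted line is the common floor at -2.71. Every panel spans the same log2 range. B2m is highest on the Hdac6 KD arrays, whereas H2-K1 and H2-T23 are highest on the control KD arrays.

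The classical heavy chain gene H2-K1, which presents peptides to cytotoxic T cells, fell in every knockdown. Its brighter probe (chromosome 17, 34133055 to 34133114 on mm9), printed 10 times per array, read 1.65 and 1.58 under control KD and 0.89 and 0.70 under Tip60 KD. It read 1.23 and 1.17 under Hdac6 KD and 0.95 and 0.89 under double KD. All 6 knockdown arrays lay below both control KD arrays, and both Hdac6 KD arrays lay above those of Tip60 KD and double KD. H2-K1 changed by -0.82 under Tip60 KD (SE 0.09, limma adjusted p 0.00222), to 56.5% of control KD. The change was -0.69 under double KD (adjusted p 0.00563), to 61.8% of control KD. It was smallest under Hdac6 KD, at -0.41 (adjusted p 0.0293), and leaving out control KD array A or Hdac6 KD array B ended that call, at -0.37 and -0.38. Tip60 KD lay below Hdac6 KD by 0.41, a called difference (adjusted p 0.0350). That call was lost without Tip60 KD array B, where the difference was -0.32, and without either Hdac6 KD array, where it was -0.38 and -0.44. It was also lost with the mean of the H2-K1 probes, at -0.15 (adjusted p 0.238), and with only the arrays of the 2 groups (adjusted p 0.124). The second H2-K1 probe, described below, gave 0.10 (adjusted p 0.755). Double KD against Tip60 KD gave 0.13 (95% interval -0.10 to 0.36, adjusted p 0.595). Double KD against Hdac6 KD gave -0.28 (adjusted p 0.157, and 0.0266 with the replicate letter as a block).

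The nonclassical heavy chain gene H2-T23 encodes Qa-1, which presents leader peptides of other class I molecules to natural killer cell receptors. Its probe (chromosome 17, 36167338 to 36167574 on mm9) read -0.41 and -0.59 under control KD, -0.98 and -1.01 under Tip60 KD, -1.25 and -1.11 under Hdac6 KD, and -1.49 and -1.49 under double KD. The 4 groups did not overlap, with control KD highest and double KD lowest. H2-T23 changed by -0.50 under Tip60 KD (SE 0.09, limma adjusted p 0.0111) and by -0.68 under Hdac6 KD (adjusted p 0.00756). In double KD it changed by -0.99 (adjusted p 0.00241), to 50.3% of control KD. These 3 calls held under all 20 alternatives computed. Double KD lay 0.49 below Tip60 KD (adjusted p 0.0833), and with 1 array left out the difference ran from -0.51 to -0.48. This call was lost under 14 of the 20 alternatives. Over all 18116 genes this comparison had 672 calls in the main fit. It had 1 with normexp background correction and 0 with only the arrays of the 2 groups, so losing the call there is not particular to H2-T23. Double KD lay 0.31 below Hdac6 KD (adjusted p 0.130, and 0.0543 with the block). Between Tip60 KD and Hdac6 KD the difference was 0.18 (95% interval -0.05 to 0.41, adjusted p 0.276).

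H2-K1 has a second probe (chromosome 17, 34133984 to 34134043 on mm9), and its letters matter because they are close to those of the H2-T23 probe. The 2 probe sequences are given 5′ to 3′ as designed, with the run they share in capitals.
H2-K1, second probe: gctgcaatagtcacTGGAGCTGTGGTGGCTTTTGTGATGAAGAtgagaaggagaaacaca
H2-T23 probe: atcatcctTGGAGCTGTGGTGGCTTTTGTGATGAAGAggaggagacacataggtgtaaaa
The shared run is 29 bases long, and with the runs laid over each other 39 of the 54 overlapping bases are identical. With any further class I probe on the array the H2-T23 probe shared at most 15 bases in a row and the second H2-K1 probe 14. For the brighter H2-K1 probe the longest such run was 8 bases, for H2-D1 it was 12 and for B2m it was 10. Binding of H2-T23 transcript to the second H2-K1 probe, or the reverse, was not tested, nor were sequence differences between the E14 strain and the reference.

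The second H2-K1 probe read 0.04 and 0.07 under control KD, -0.47 and -0.23 under Tip60 KD, -0.55 and -0.36 under Hdac6 KD, and -1.07 and -0.79 under double KD. It was lowest under double KD and its Tip60 KD and Hdac6 KD arrays overlapped, as those of the brighter probe did not. Fitted with every probe separately, it changed by -0.41 under Tip60 KD (SE 0.14, limma adjusted p 0.0703), by -0.51 under Hdac6 KD (adjusted p 0.0486) and by -0.99 under double KD (adjusted p 0.00596). Both H2-K1 probes thus fell in all 3 knockdowns. They differed in the order of the knockdowns, at -0.82, -0.41 and -0.69 under the Tip60, Hdac6 and double KD for the brighter probe and -0.41, -0.51 and -0.99 for the second. Over the 8 arrays the second H2-K1 probe had a Pearson r of 0.936 with the H2-T23 probe and 0.624 with the brighter H2-K1 probe, as a description of probes that share arrays and sequence.

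**Figure D2:**
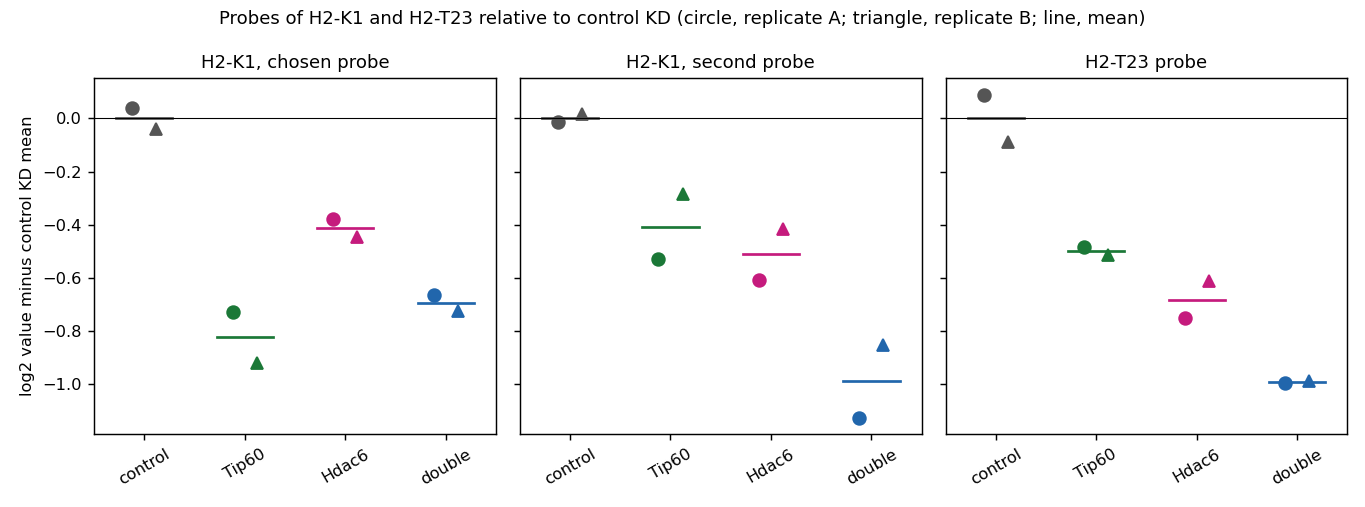
Log2 value minus the control KD mean (y axis) for the brighter H2-K1 probe, the second H2-K1 probe and the H2-T23 probe in the 4 groups (x axis). Circles are replicate A, triangles replicate B and lines group means. All 3 probes are below control KD in every knockdown, and the second H2-K1 probe and the H2-T23 probe are lowest under double KD.

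The other classical heavy chain gene, H2-D1, did not follow H2-K1. Its probe (chromosome 17, 35403886 to 35403945 on mm9) read -0.18 and -0.34 under control KD, 0.06 and -0.07 under Tip60 KD, -0.31 and -0.41 under Hdac6 KD, and -0.40 and -0.45 under double KD. The Tip60 KD arrays lay above the other 6, and the Hdac6 KD arrays overlapped those of control KD and of double KD. H2-D1 rose by 0.26 under Tip60 KD (SE 0.10, limma adjusted p 0.0909), and 13 of 20 alternatives lost that call with values of 0.17 to 0.33, including 7 of the 8 that left out an array. It lay 0.36 above Hdac6 KD there (adjusted p 0.0563), a call lost under 8 alternatives, including those without any Tip60 KD or Hdac6 KD array. In Hdac6 KD the difference from control KD was -0.10 (95% interval -0.33 to 0.14, adjusted p 0.556). In double KD it was -0.16 (adjusted p 0.309, and 0.0657 with the block). Double KD against Tip60 KD gave -0.42 (adjusted p 0.114, and 0.0138 with the block).

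Tapasin, encoded by Tapbp, holds empty class I molecules to the peptide transporter. Its probe (chromosome 17, 34065963 to 34066022 on mm9) read 0.22 and 0.29 under control KD, 0.28 and 0.14 under Tip60 KD, 0.57 and 0.40 under Hdac6 KD, and 0.48 and 0.35 under double KD. The Hdac6 KD and double KD arrays lay above the other 4, by little. None of its 6 differences was called. The one from control KD was 0.23 under Hdac6 KD (SE 0.10, limma adjusted p 0.188, and 0.0637 with the block), 0.16 under double KD (adjusted p 0.339) and -0.04 under Tip60 KD (adjusted p 0.812). Tip60 KD against Hdac6 KD gave -0.27 (adjusted p 0.147, and 0.0466 with the block).

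The peptide transporter, the trimming peptidase and the transactivator were dim. Tap2 (chromosome 17, 34353116 to 34353175 on mm9) lay between -2.51 and -2.19 on all 8 arrays, just above the floor, and its log2 differences between groups lay between -0.07 and 0.15 with no call. The brighter Nlrc5 probe (chromosome 8, 97030478 to 97030624 on mm9) was at the floor on control KD array A and double KD array A and reached at most -2.19 elsewhere. Its differences from control KD were 0.21, 0.22 and 0.16 under the Tip60, Hdac6 and double KD, with adjusted p of 0.553, 0.574 and 0.679. With the replicate letter as a block the first of these had an adjusted p of 0.0978 and the second 0.0961. Values this near the floor depend on where the floor lies.

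Tap1, Erap1 and the second Nlrc5 probe were below the floor on all 8 arrays and could not be tested. The Tap1 probe (chromosome 17, 34330854 to 34330913 on mm9), printed 10 times, gave a background-subtracted signal of 119.9 and 97.6 intensity units under control KD, 90.5 and 76.6 under Tip60 KD, 98.9 and 81.7 under Hdac6 KD, and 87.2 and 117.5 under double KD. It was well above background on 5 arrays, and the double KD values lay further apart than the 4 values of the single knockdowns. The Erap1 probe (chromosome 13, 74828969 to 74829028 on mm9) gave between -37.2 and 28.8 units. The second Nlrc5 probe (chromosome 8, 97051105 to 97051164 on mm9) gave between 62.0 and 147.4 units. All of these signals lay below the floor, so no level or change is given for them.

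**Figure D3:**
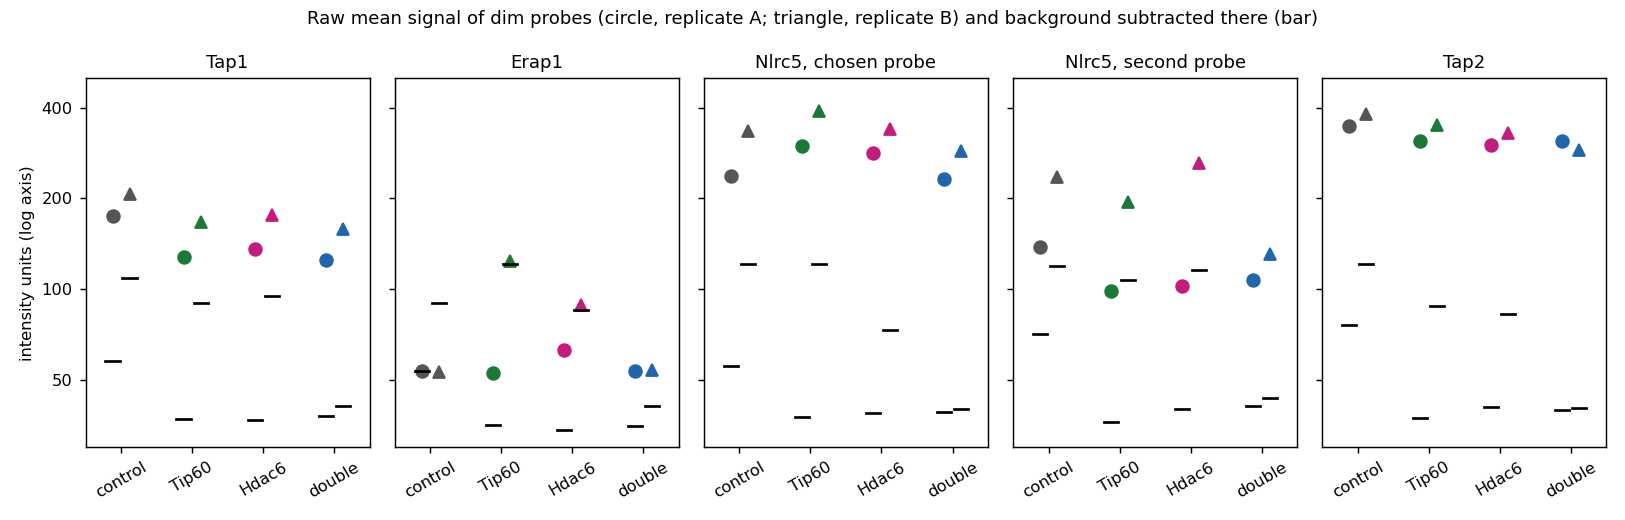
Raw mean signal in intensity units (y axis, log scale) of the 5 dim probes in the 4 groups (x axis), with circles for replicate A and triangles for replicate B. Black bars are the background subtracted at the same spots. The Erap1 signal lies at or near the bar on control KD array A and on the Tip60 KD and Hdac6 KD B arrays and below it on control KD array B, and the bars differ between arrays.

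Counted over the 8 genes other than B2m, of which 6 were tested, 1 rose and 2 fell under Tip60 KD, none rose and 2 fell under Hdac6 KD, and none rose and 2 fell under double KD. Of all genes tested, 39.7% were called under Tip60 KD (19.7% higher, 20% lower), 28.9% under Hdac6 KD (14% higher, 14.9% lower) and 32.8% under double KD (15.9% higher, 16.9% lower). The genes that fell were H2-K1 and H2-T23 each time. The median log2 difference of the 6 genes was -0.04, -0.08 and -0.04 under the Tip60, Hdac6 and double KD, against 0.06, 0.03 and 0.05 over all genes tested. These 3 comparisons share the control KD arrays. In Tip60 KD against Hdac6 KD, H2-D1 was higher and H2-K1 lower, where 23.5% of all genes were called (12.2% higher, 11.3% lower). In double KD against Tip60 KD, H2-T23 was lower, where 3.71% of all genes were called (1.15% higher, 2.56% lower). In double KD against Hdac6 KD none of the 6 was called by limma, where 10.1% of all genes were called (5.37% higher, 4.73% lower). The unadjusted limma p there was 0.0234 for H2-K1 and 0.0168 for H2-T23. These are not to be set beside the 10.1%, which rests on adjusted p.

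**Figure D4:**
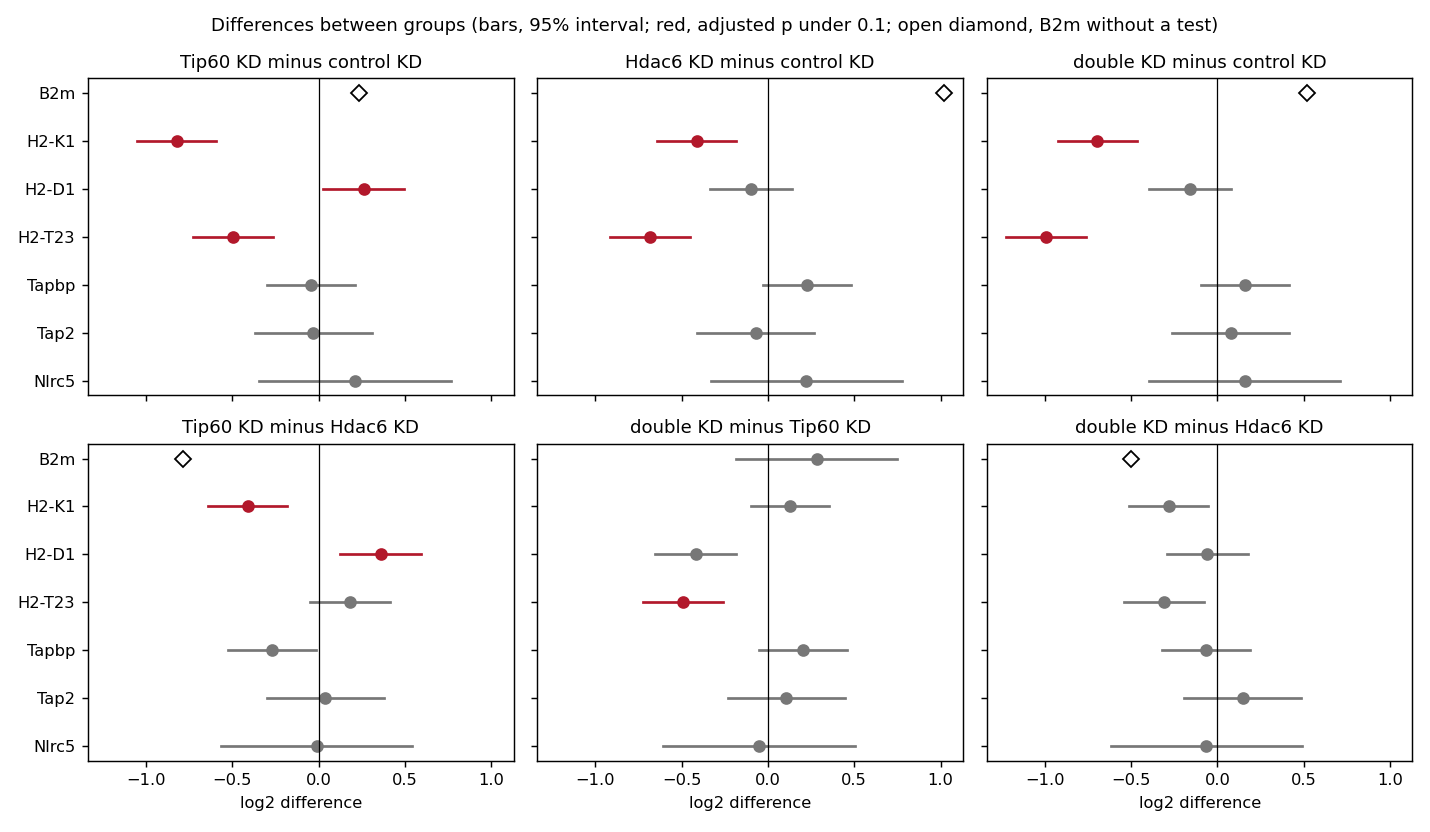
Log2 difference (x axis) of 7 genes (y axis) in the 6 pairwise comparisons of groups. Points are limma estimates with 95% intervals, red where the adjusted p is under 0.1, and open diamonds are B2m differences given without a test. H2-K1 and H2-T23 are red and below 0 in all 3 comparisons with control KD.

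The 4 class I chain genes did not vary together over the 8 arrays. H2-K1 and H2-T23 had a Pearson r of 0.716, H2-D1 had -0.23 with H2-K1 and 0.404 with H2-T23, and B2m had -0.17 with H2-K1, -0.32 with H2-D1 and -0.61 with H2-T23. Tapbp was the member most like B2m, with r of 0.868, and it ranked 390 among 14128 genes above the floor on all arrays. The genes most like B2m were Map2k4 (r 0.991), a probe without a gene symbol in the files (0.990), Fblim1 (0.988), Wdr86 (0.986) and Gtf2ird2 (0.986). Fblim1 read 3.63 and 3.54 under control KD, 3.81 and 3.64 under Tip60 KD, 4.44 and 4.19 under Hdac6 KD, and 4.09 and 3.79 under double KD. These likenesses rest on 8 arrays of 4 groups and are given as a description. The arrays include those of Hdac6 KD and control KD by which B2m was picked, so each r with B2m in part restates that pick.

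H2-K1, H2-D1, H2-T23, Tap1, Tap2 and Tapbp lie in the MHC region. Between the outermost of their probes (chromosome 17, 34065963 to 36167574 on mm9) lay 106 other genes that were tested, counted by name. Some of these names are probes or transcripts without a gene symbol. Others, such as H2-Q7 and Psmb9, are class I pathway genes described below. Of these, 52.8% were called under Tip60 KD (34 higher, 22 lower), 34.9% under Hdac6 KD (17 higher, 20 lower) and 44.3% under double KD (26 higher, 21 lower), beside 39.7%, 28.9% and 32.8% of all genes tested. Calls in both directions were thus found in the neighbourhood. The largest changes were those of Ltb, a cytokine of the tumour necrosis factor family (2.33, 0.52 and 2.43 under the Tip60, Hdac6 and double KD), Notch4, a receptor (2.32, 0.12 and 1.46), Atf6b, an endoplasmic reticulum stress factor (1.87, 1.02 and 1.53), and Mdc1, a DNA damage mediator (-1.76, -0.78 and -1.18). All were called except Notch4 under Hdac6 KD (adjusted p 0.557).

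The wider pathway is described by lists of named genes, with log2 differences from control KD in the order Tip60, Hdac6 and double KD. The counts of each list stand beside 39.7%, 28.9% and 32.8% of all genes called in these comparisons. Among 8 chaperones and loading factors, all tested, 1 rose under Tip60 KD, 1 rose and 1 fell under Hdac6 KD, and 1 rose under double KD. The gene that rose was Pdia3 each time, the disulphide isomerase of the loading complex. It read 2.94 and 2.90 under control KD, 4.10 and 3.94 under Tip60 KD, 3.65 and 3.56 under Hdac6 KD, and 4.08 and 3.83 under double KD. Its changes were 1.10, 0.68 and 1.03 (limma adjusted p 0.00176, 0.0121 and 0.00350), and all knockdown arrays lay above control KD. Ganab, a glucosidase that trims glycans of new proteins, fell by 0.40 under Hdac6 KD (adjusted p 0.0613). With the replicate letter as a block 4, 5 and 2 genes of the list were called. Without Tip60 KD array A 3 were called under Tip60 KD, and without any one control KD or Hdac6 KD array 1 was called under Hdac6 KD.

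Of 8 proteasome subunits and activators, 7 were tested. None rose, and 3 fell under Tip60 KD, 2 under Hdac6 KD and 5 under double KD, where 20%, 14.9% and 16.9% of all genes were called lower. Psmb9, an interferon-inducible catalytic subunit whose gene neighbours Tap1, fell in all 3. It read -0.93 and -1.07 under control KD, -1.38 and -1.33 under Tip60 KD, -1.78 and -1.76 under Hdac6 KD, and -1.44 and -1.36 under double KD. Its changes were -0.36, -0.77 and -0.40 (limma adjusted p 0.0206, 0.00385 and 0.0189). Psmb10, another inducible subunit, fell by 0.91 under Tip60 KD and 0.48 under double KD and differed by 0.14 under Hdac6 KD (adjusted p 0.440). Psme2, a subunit of the activator that favours class I peptides, fell by 0.69 under Tip60 KD and 0.36 under double KD and differed by -0.11 under Hdac6 KD (adjusted p 0.601). Its partner Psme1 fell under double KD by 0.37. The constitutive subunit Psmb7 fell by 0.39 under Hdac6 KD and 0.24 under double KD. The count of 5 under double KD was 2 when control KD array A or double KD array B was left out, and 3 when the other array of either group was. The count of 2 under Hdac6 KD was 1 without Hdac6 KD array B. Psmb8 was not tested. Of 7 cytosolic peptidases, 1 fell under Tip60 KD, 2 rose and 1 fell under Hdac6 KD, and 1 rose and 1 fell under double KD. Npepps, an aminopeptidase, fell by 0.62, 0.44 and 0.40. Thop1, which degrades class I peptides, rose by 0.65 under Hdac6 KD and 0.50 under double KD, and Ide rose by 0.53 under Hdac6 KD. With the block 4 peptidases were called under Tip60 KD. Without Tip60 KD array B 2 were called there, and without Hdac6 KD array B 1 was called under Hdac6 KD.

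Other class I and class I-like genes moved both ways. Of 29 listed, 26 were on the array and 20 were tested, and 5 rose and 4 fell under Tip60 KD, 4 rose and 7 fell under Hdac6 KD, and 5 rose and 7 fell under double KD. H2-Q7, which encodes Qa-2, read 0.89 and 0.97 under control KD, 0.51 and 0.54 under Tip60 KD, 0.37 and 0.39 under Hdac6 KD, and 0.02 and 0.18 under double KD. It fell by 0.40, 0.55 and 0.83 (limma adjusted p 0.0152, 0.00995 and 0.00290), with all 4 groups apart and double KD lowest. H2-Q2 fell by 0.41, 0.62 and 0.96 and H2-Bl, a class I gene described from blastocysts, by 0.36, 0.69 and 0.72. H2-Bl was at the floor on Hdac6 KD array B and both double KD arrays, so that its changes under Hdac6 KD and double KD are lower bounds. The H2-Q2 probe shared at most 14 bases in a row with the H2-T23 probe, and the H2-Q7 and H2-Bl probes at most 7. H2-M5, a nonclassical heavy chain gene, went the other way. It read 0.33 and 0.16 under control KD, 2.01 and 1.70 under Tip60 KD, 1.51 and 1.24 under Hdac6 KD, and 2.18 and 1.88 under double KD, and rose by 1.61, 1.13 and 1.78 (adjusted p 0.00191, 0.00945 and 0.00245).

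The list also held ligands of the natural killer cell receptor NKG2D, which resemble class I heavy chains and need no light chain. Raet1a rose by 1.23, 1.35 and 0.94 (limma adjusted p 0.00134, 0.00236 and 0.00419), Raet1e by 0.67, 0.71 and 0.88 and Raet1b by 0.61, 0.58 and 0.72 (adjusted p 0.0627, 0.0976 and 0.0470). Ulbp1, another ligand, named here after its values were seen, differed by -0.30, -0.39 and -0.01 (adjusted p 0.706, 0.653 and 0.998), and Raet1c and Raet1d were not tested. The Raet1 genes are close copies, so that the probes may share transcripts. Fcgrt, the B2m-bound Fc receptor chain, was at the floor on both control KD arrays and Hdac6 KD array B, read -2.71 on Hdac6 KD array A, and read -1.77 and -1.76 under Tip60 KD and -2.01 and -2.21 under double KD. Procr, the protein C receptor, fell by 0.78 under Hdac6 KD only among the comparisons with control KD (adjusted p 0.0112) and differed by 0.02 and 0.09 in the others. H2-Ke6, listed by its symbol, fell by 0.99, 1.21 and 0.99, but it is known to encode a steroid dehydrogenase and not a class I chain. The counts of genes that fell in this list include it in all 3 knockdowns.

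Of 18 transcription and chromatin factors known to act on class I genes, 14 were tested, and 2 rose and 6 fell under Tip60 KD, 3 rose and 4 fell under Hdac6 KD, and 3 rose and 6 fell under double KD. Of all genes 39.7%, 28.9% and 32.8% were called there. Irf8, an interferon regulatory factor, read -0.28 and -0.46 under control KD, -1.89 and -2.14 under Tip60 KD, -1.85 and -2.18 under Hdac6 KD, and -1.67 and -1.90 under double KD. It fell by 1.64, 1.65 and 1.42 (limma adjusted p 0.00162, 0.00336 and 0.00381). Nfyb, a subunit of the CCAAT-binding factor, fell by 0.62, 0.59 and 0.62. Rfxap, a subunit of the RFX complex, fell by 0.59 under Hdac6 KD and by at least 1.14 under double KD, where both arrays were at the floor. Its Tip60 KD group had 1 value, also at the floor, as the other was missing, so no change is given there although it is in the count. Suz12, a subunit of the polycomb repressive complex PRC2, fell by 0.45, 1.70 and 1.10, and the PRC2 enzyme gene Ezh2 fell by 0.78 under Tip60 KD and 0.59 under double KD. The list held 2 genes of NF-kB subunits, of which Nfkb1 rose by 0.89, 0.91 and 0.55 and Rela by 0.49, 0.49 and 0.62. The count of 8 under Tip60 KD was 5 without Tip60 KD array B. The count of 7 under Hdac6 KD was 4 without control KD array A and 11 with the block.

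Interferon signalling genes did not move in 1 direction. Of 11 receptor, kinase and feedback genes, all tested, 3 rose and 3 fell under Tip60 KD, 1 rose and 3 fell under Hdac6 KD, and 2 rose and 3 fell under double KD. The receptor gene Ifnar1 rose by 0.41, 0.49 and 0.70, while the receptor gene Ifngr1 fell by 0.41, 0.53 and 0.40. Stat2, a signal transducer, fell by 0.38, 1.01 and 0.65, Socs3, a feedback inhibitor, by 0.66, 0.29 and 0.34, and Jak1, a kinase, rose by 0.59 under Tip60 KD and 0.57 under double KD. The count under double KD was 2 without control KD array A and 3 without any one of the other control KD and double KD arrays. With the block 9 were called under Hdac6 KD and 8 under double KD. Of 22 interferon-induced genes, 9 were tested and 13 were too dim, among them Ifit1, Ifit3, Irf7, Mx1 and Cxcl10. Of the 9, 3 rose and 1 fell under Tip60 KD, 2 rose under Hdac6 KD, and 3 rose and 1 fell under double KD. The RNA sensor gene Ddx58 rose by 0.82, 1.34 and 1.08 (limma adjusted p 0.00125, 0.00133 and 0.00129) and Xaf1, a promoter of cell death, by 0.89, 0.70 and 1.12. Oas1a, an antiviral synthetase, rose by 1.05 under Tip60 KD and 0.83 under double KD, and Bst2, the membrane protein tetherin, fell by 1.07 and 0.74 there. In Hdac6 KD Oas1a and Bst2 differed from control KD by -0.10 and 0.03 (limma adjusted p 0.620 and 0.935).

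**Figure D5:**
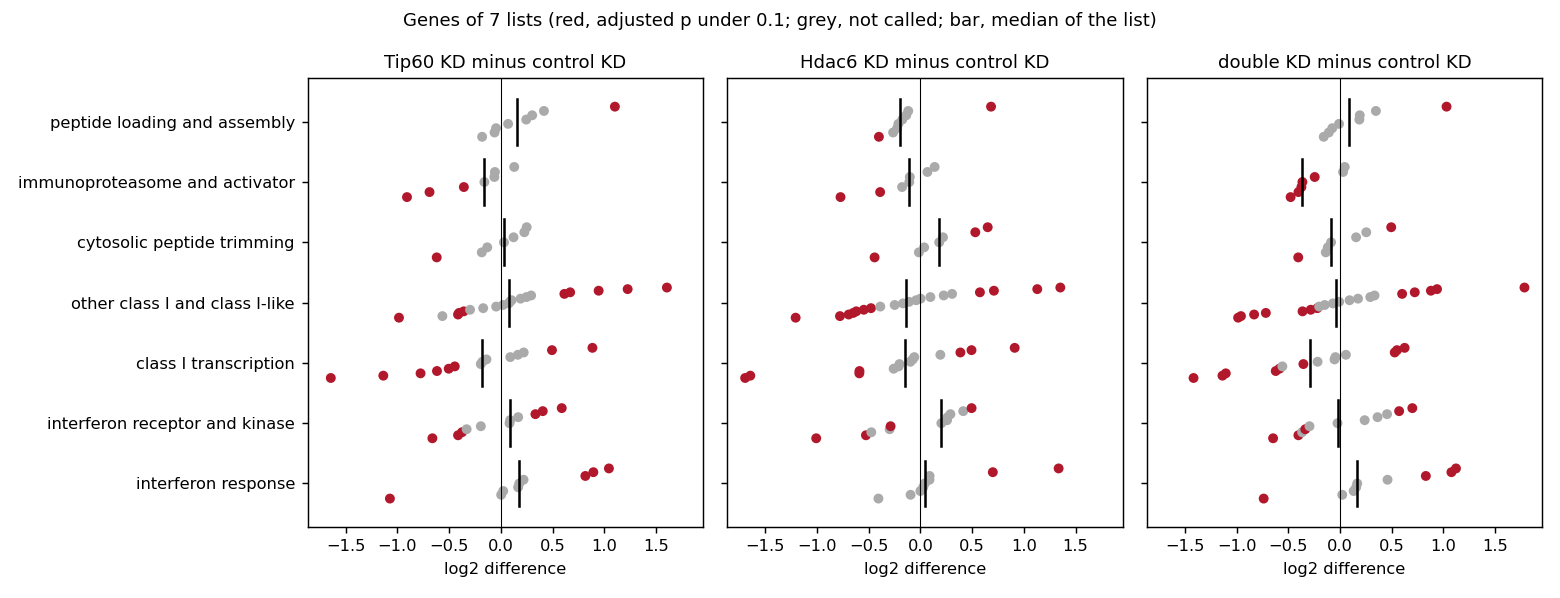
Log2 difference from control KD (x axis) of the tested genes of 7 lists (y axis) in the 3 knockdowns. Each point is a gene, red where the limma adjusted p is under 0.1 and grey otherwise, and black bars are list medians. Red points lie on both sides of 0 in most lists, and the proteasome list has none above 0.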

How the data were processed

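Mouse E14 ESC RNA was measured in 4 groups of 2 samples. Per the authors' methods, Cy3-labelled cRNA was made from total RNA and hybridised to 1-colour whole-genome Agilent arrays. The deposited scanner files hold intensity per spot from Agilent Feature Extraction 10.7.1.1, background-subtracted and not scaled between arrays. A deposited series matrix gives log2 values, with a normalization not given in the sources used here. Its columns ranked probes as the median signal did, so it was treated as quantile-normalised without background subtraction and used as an alternative.

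Outlier spots were left out, spots of a probe averaged, and signals divided by the array's 75th percentile and raised to a common floor (0.153 of the percentile) before log2. The floor is the highest, over arrays, of the lowest signal well above background. Probes were kept that exceeded both background and floor on 2 arrays or more, and a gene was represented by its kept probe of highest mean. Differences were tested 2-sided with limma 3.58.1 in R 4.3.3 (lmFit and eBayes, 4 residual and 1.84 prior degrees of freedom, Benjamini-Hochberg over 18116 genes), with all arrays in 1 fit and no block. The steps were run on simulated data with noise independent between arrays, which lacks the pairing by replicate letter described below. Figures were drawn with matplotlib 3.10.9.

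The replicate letters pair the arrays: differences between A and B correlated across genes between all 6 pairs of groups (0.651 to 0.799), and letter, slide and scan coincide. The fit with the letter as a block is given where it changed a call or moved a count by over 1.5 times. The block also raised the calls over all 18116 genes in the comparisons between knockdowns. They went from 4251 to 7526 in Tip60 KD against Hdac6 KD and from 672 to 4751 in double KD against Tip60 KD. In double KD against Hdac6 KD they went from 1829 to 5331. Named genes are the 9 members, the targeted genes, per list and knockdown at most the 4 called genes of largest change plus those called in all 3, the 5 genes most like B2m, and 4 neighbours. The genes and lists were chosen with earlier results of these data known. Probe positions are those of the files (mm9), and promoters are from RefSeq (GRCm38.p6). Protein sequences were not used here.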

Additional observations from a re-analysis of the deposited data

How the results depend on the processing

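The 37 tested differences of the 7 genes were computed under 20 alternatives each. Of the 740 values 681 kept their side of the threshold, 43 lost a call, 16 gained one and none reversed while called. The 100 untested B2m values kept their sign, but all of them use arrays by which B2m was picked, so this is no support for its change. The calls of H2-K1 and H2-T23 against control KD held throughout, except that of H2-K1 in Hdac6 KD. The number of the 6 genes called in Hdac6 KD against control KD, 2, was 1 with the series matrix and 4 with the replicate block, and without a replicate it ranged from 1 to 2. In Tip60 KD against Hdac6 KD the number, 2, was 1 with normexp, with the same background on every array, with the series matrix and with the mean of a gene's probes, and 0 with only the arrays compared. It ranged from 0 to 2 without a replicate. In double KD against Tip60 KD the number, 1, was 0 with normexp, the same background, quantile normalization, the series matrix, the low floor and only the arrays compared, was 2 with the replicate block alone or with a GC trend removed, and was 0 without any replicate, lowest and highest. In double KD against Hdac6 KD the number, 0, was 1 with the mean of the probes and 2 with the replicate block alone or with the GC trend removed. The B2m difference between double KD and Tip60 KD, 0.28, passed the threshold with the replicate block (0.28), and without a replicate it ranged from 0.07 to 0.49. The count over all 18116 genes shifted too. In Hdac6 KD against control KD it was 5240 in the main fit, 4042 with the series matrix and 9594 with the block. In double KD against Tip60 KD it was 672 in the main fit and 4751 with the block. It was 1 there with normexp and 0 with only the arrays compared. The cause of these shifts was not tested. The pairing changed no other call of the 7 genes than those given with the block in the text and H2-D1 in Hdac6 KD, which was called at -0.14 with both block and GC correction. Signal over background limits Tap1, Tap2, Erap1 and Nlrc5.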
